A study of Mus musculus with 6 samples.

Results

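The genes described here are 10 enzymes and transporters of fatty acid synthesis and acetyl-CoA supply, chosen by name for their roles in the pathway, with earlier results of these data known. They are Acly, Acss2, Aacs, Acaca, Fasn, Acsl1, Acsl3, Slc27a4, Mcat and Oxsm, out of 54532 gene entries in the deposited table. All 10 were in the table and all passed the filter on low values, a mean of at least 1 FPKM (fragments per kilobase of listed gene length, scaled by the authors for library size) over all libraries, as did 11708 genes in total. RNA came from RAW264.7 cells, a mouse macrophage line, after 3 days of culture in both groups. The C/D group was cultured with a composite hydrogel of GelMA with the conductive polymer PEDOT:PSS and PLLA/PDA, and was exposed to ultrasound at 48 kHz for 5 min. The Gel/S group was cultured with plain GelMA, a gelatin-based hydrogel, and was kept static. Each group had 3 libraries. Material and ultrasound changed together, so the part of each cannot be told apart. The columns of the table that carry the letters US were read as the ultrasound group C/D, and every direction below rests on that reading. The labels do not say that the libraries came from separate cultures, so p-values measure only the spread between these libraries.

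Fatty acid synthesis starts from acetyl-CoA in the cytosol. ATP-citrate lyase (Acly) makes it from citrate exported by mitochondria, and acetyl-CoA synthetase (Acss2) makes it from acetate. Acetyl-CoA carboxylase (Acaca) turns it into malonyl-CoA, from which fatty acid synthase (Fasn) builds palmitate, while acyl-CoA synthetases activate finished or imported fatty acids. Mitochondria hold a separate pathway of single-function enzymes, including Mcat and Oxsm, that is best known for making the precursor of lipoic acid. In macrophages, fatty acid synthesis is known to respond to inflammatory stimulation and to feed membrane growth.

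Of the 10 genes, 8 were lower in C/D than in Gel/S (fell), none rose, and 2 did not pass the test. The test was edgeR's quasi-likelihood test with Benjamini-Hochberg adjustment over the 11708 genes and a threshold of 0.05. The 8 that fell were Acly, Acss2, Aacs, Acaca, Fasn, Acsl1, Acsl3 and Slc27a4. The 2 mitochondrial genes, Mcat and Oxsm, did not pass. Among all tested genes 13.9% fell and 13.1% rose, 27% in either direction. The median log2 fold change of the 10 genes was -0.58, against 0.01 over all tested genes. No member rose at an unadjusted p under 0.05 either, and 0 rose with DESeq2 or with limma. In bulk RNA, less of a transcript per cell and fewer cells that express it cannot be told apart.

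**Figure D1:**
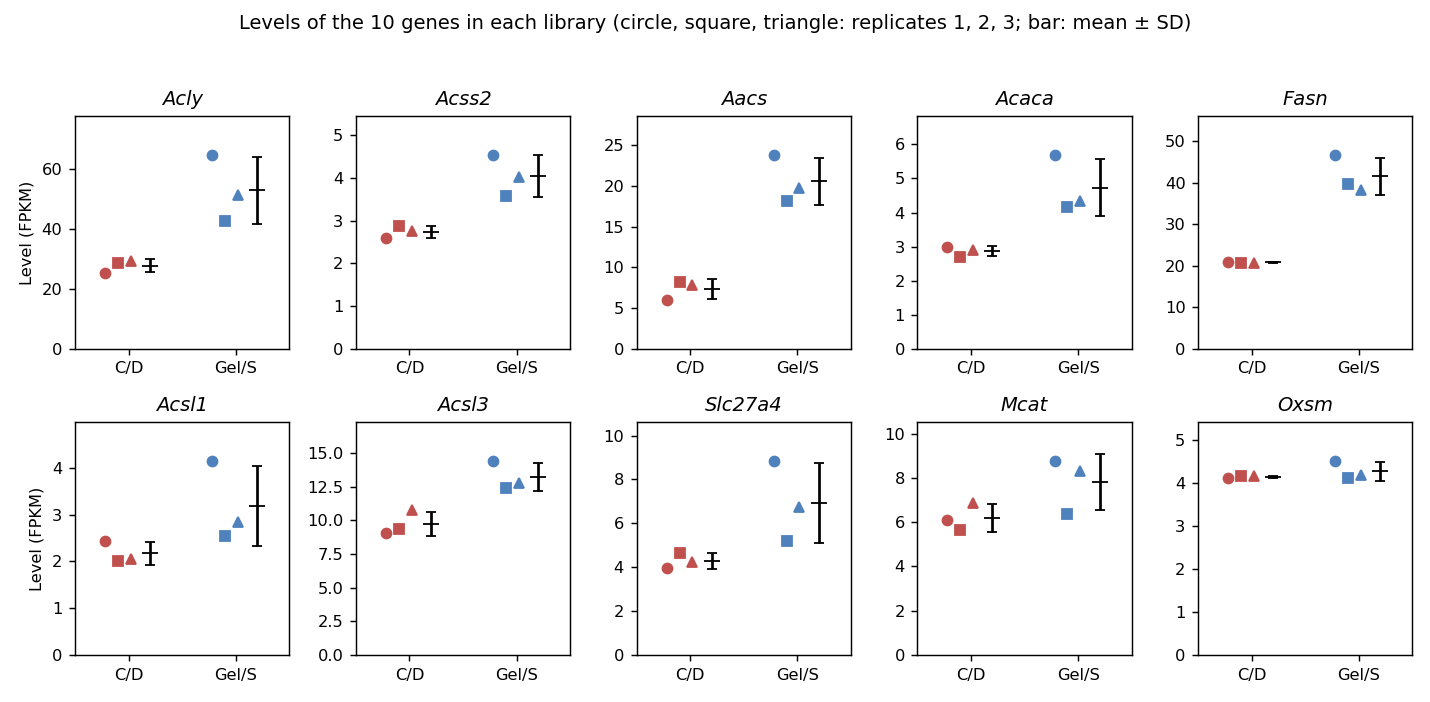
Level of each of the 10 genes in each library, in FPKM on a linear axis that starts at 0 and has its own scale for each gene, with C/D left of Gel/S. Circles, squares and triangles are replicates 1, 2 and 3, and bars give the group mean ± SD. All C/D points lie below all Gel/S points for 8 genes, and the points of Mcat and Oxsm overlap between groups.

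The libraries held between 12818831 and 15802627 counts in C/D and between 15579679 and 16525699 in Gel/S. Replicates differed by more than sampling noise, with a chi-square per degree of freedom of at least 3.35 in every pair of one group. It was 9.73, 8.60 and 3.35 in the C/D pairs 1 and 2, 1 and 3, and 2 and 3. In the same pairs of Gel/S it was 41.0, 18.0 and 9.25, so the pairs with Gel/S 1 differed most over all genes. The share of mitochondrially encoded counts was 9.84% ± 0.606 in C/D and 7.34% ± 1.72 in Gel/S (SD, n = 3 each), with p = 0.1 in a two-sided exact permutation test, the smallest p that 3 against 3 libraries can give. The 10 macrophage markers summed to between 11022 and 11190 FPKM in C/D and between 13540 and 14141 FPKM in Gel/S, and 1 of 9 tested, Csf1r, fell. Lyz2 made up most of these sums, with a mean of 8024 FPKM in C/D and 10197 FPKM in Gel/S. Lyz2 and Cd14 were lower in every C/D library but did not pass (edgeR adjusted p = 0.0649 and 0.0599). The levels of Cd68, Fcgr1 and Itgam overlapped between the groups. The 9 osteoclast markers summed to between 46.6 and 51.9 FPKM in C/D and between 56.1 and 57.8 FPKM in Gel/S, with Calcr listed at 0 throughout, and among them Acp5 rose and Dcstamp fell. Markers of adipocytes, of fibroblasts and osteoblasts, and of lymphocytes summed to at most 0.280 FPKM in any library. The adipocyte genes Lep and Cidec were listed at 0 in all libraries. The part of the macrophage and osteoclast levels and of the mitochondrial share in the results was not tested.

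Aacs, the cytosolic acetoacetyl-CoA synthetase that turns the ketone body acetoacetate into a lipid precursor, showed the largest difference of the 10 genes. It lies at chr5:125475814-125517410 on the plus strand (GRCm38). Its level was 5.99, 8.20 and 7.81 FPKM in the C/D libraries, against 23.8, 18.1 and 19.7 FPKM in the Gel/S libraries. Every C/D library was below every Gel/S library, as it was for 27.1% of all tested genes, while the reverse held for 19.1% of them. Of the 10 genes, 8 were separated in this way, all lower in C/D, and 2 overlapped. The means were 7.33 ± 1.18 FPKM in C/D and 20.5 ± 2.93 FPKM in Gel/S (SD, n = 3 each). The log2 fold change of Aacs was -1.44 (SE 0.129, 95% interval -1.72 to -1.16, edgeR adjusted p = 6.42e-05), a level 63.1% lower in C/D. It ranked 33 from the lowest among the 11708 tested genes.

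Acly is the enzyme that splits exported citrate into acetyl-CoA and oxaloacetate, and had the highest FPKM of the 10 genes in both groups. It lies at chr11:100476353-100528000 on the minus strand. Its level was 25.3, 28.7 and 29.2 FPKM in the C/D libraries, against 64.6, 42.6 and 51.2 FPKM in the Gel/S libraries. The groups did not overlap, and the Gel/S libraries were spread more widely than the C/D libraries. The means were 27.7 ± 2.13 FPKM in C/D and 52.8 ± 11.1 FPKM in Gel/S (SD, n = 3 each). Acly had a log2 fold change of -0.89 (SE 0.130, 95% interval -1.17 to -0.60, edgeR adjusted p = 0.000967), a level 45.9% lower in C/D.

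Acss2, which activates acetate in the cytosol and nucleus, was lower than Acly in both groups, per listed gene length and per principal transcript. It lies at chr2:155517948-155585724 on the plus strand. Its level was 2.60, 2.87 and 2.75 FPKM in the C/D libraries, against 4.54, 3.57 and 4.02 FPKM in the Gel/S libraries. The groups again did not overlap. The log2 fold change of Acss2 was -0.52 (SE 0.105, 95% interval -0.75 to -0.29, edgeR adjusted p = 0.00478), a level 30.1% lower in C/D. The ratio of Acly to Acss2 in FPKM sets the citrate route beside the acetate route. Per listed gene length it was 9.73, 9.995 and 10.6 in the C/D libraries, against 14.2, 11.9 and 12.7 in the Gel/S libraries. All 3 C/D ratios were below all 3 Gel/S ratios, a log2 difference of -0.36, and the exact permutation test (two-sided) gave p = 0.1, its smallest possible value. The size of the ratio depends on the length used for Acss2. Per length of the principal transcript it averaged 3.502 ± 0.152 in C/D and 4.49 ± 0.409 in Gel/S (SD, n = 3 each), with the same log2 difference.

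Acaca, whose product malonyl-CoA is the building block of fatty acid chains, lies at chr11:84129672-84401651 on the plus strand. Its level was 2.99, 2.69 and 2.91 FPKM in the C/D libraries, against 5.69, 4.16 and 4.35 FPKM in the Gel/S libraries. No C/D library reached the lowest Gel/S library. The log2 fold change of Acaca was -0.68 (SE 0.114, 95% interval -0.93 to -0.43, edgeR adjusted p = 0.00180), a level 37.7% lower in C/D. Acacb, the carboxylase of the outer mitochondrial membrane, averaged 0.408 ± 0.0440 FPKM in C/D and 0.326 ± 0.0787 FPKM in Gel/S (SD, n = 3 each). It was below the filter and was not tested.

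Fasn, the multifunctional enzyme that makes palmitate, lies at chr11:120805846-120824547 on the minus strand. Its counts were 2992, 3653 and 3402 in the C/D libraries, against 8173, 7006 and 6499 in the Gel/S libraries. In FPKM its level was 21.02, 20.8 and 20.7 in the C/D libraries, against 46.7, 39.7 and 38.2 in the Gel/S libraries. The C/D libraries were nearly equal to each other, and all 3 lay far below the Gel/S libraries. The means were 20.8 ± 0.184 FPKM in C/D and 41.5 ± 4.55 FPKM in Gel/S (SD, n = 3 each). Fasn had a log2 fold change of -0.95 (SE 0.0948, 95% interval -1.16 to -0.75, edgeR adjusted p = 0.000111), a level 48.3% lower in C/D.

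The ratio of Fasn to Acaca, the synthase over the carboxylase that feeds it, was 7.04, 7.71 and 7.10 in the C/D libraries, against 8.21, 9.54 and 8.79 in the Gel/S libraries. The groups did not overlap, with a log2 difference of -0.28. Per length of the principal transcript this ratio averaged 4.42 ± 0.225 in C/D and 5.37 ± 0.404 in Gel/S (SD, n = 3 each). The ratio of Fasn to Oxsm, the cytosolic synthase over the mitochondrial condensing enzyme, was 5.10, 4.99 and 4.97 in the C/D libraries, against 10.4, 9.67 and 9.14 in the Gel/S libraries. This log2 difference was -0.95, as large as that of Fasn itself. Each of these 2 ratios gave p = 0.1 in the two-sided exact permutation test, the smallest possible value. Of 4 ratios tested, the remaining one, Acsl3 to Acsl1, is given below. Adjusted over the 4, no ratio could pass.

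**Figure D2:**
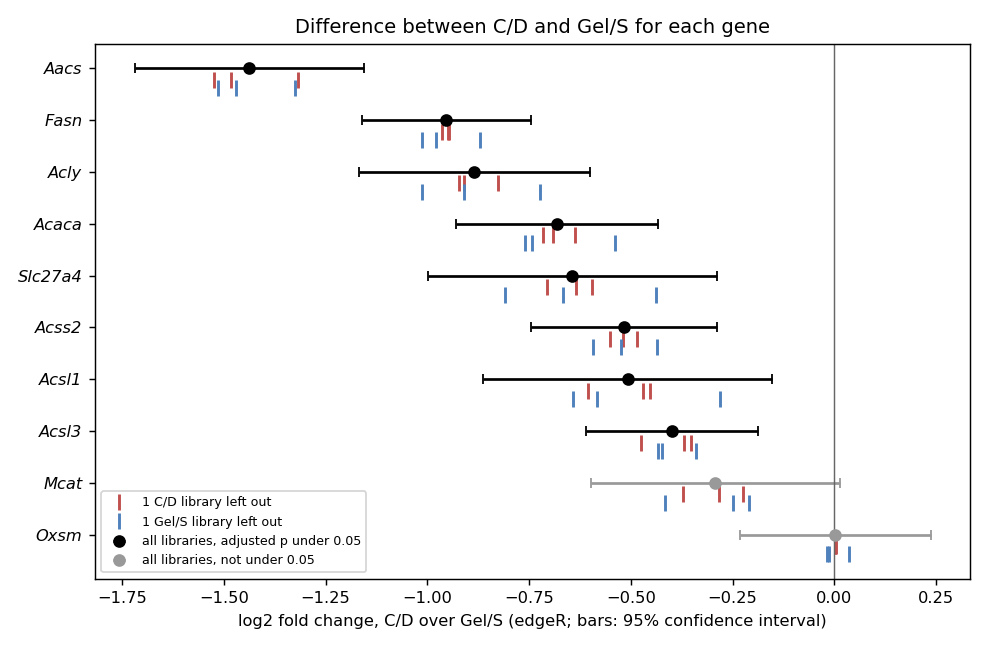
Log2 fold change, C/D over Gel/S, of each of the 10 genes with its 95% interval from edgeR (black where the gene passed, grey where it did not). Red and blue ticks give the value with 1 C/D or 1 Gel/S library left out, and the line at 0 marks no difference. The intervals of 8 genes lie wholly below 0, and those of Mcat and Oxsm include 0.

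The starts of the 3 genes with the largest differences, Aacs, Fasn and Acly, are shown because these genes fell together in C/D. The sequences are RefSeq promoter windows of GRCm38.p6, mostly upstream of the start, written 5′ to 3′ on the strand of the gene. Capitals mark matches to the CCAAT box or to the GC box (GGGCGG). Both were searched on both strands, as were the E-box (CACGTG) and a consensus of the sterol regulatory element (TCACNCCAC). No base lay in more than 1 of these motifs. The windows are chr5:125475623-125475922 on the plus strand for Aacs, chr11:120824498-120824797 on the minus strand for Fasn and chr11:100527951-100528250 on the minus strand for Acly.
Aacs: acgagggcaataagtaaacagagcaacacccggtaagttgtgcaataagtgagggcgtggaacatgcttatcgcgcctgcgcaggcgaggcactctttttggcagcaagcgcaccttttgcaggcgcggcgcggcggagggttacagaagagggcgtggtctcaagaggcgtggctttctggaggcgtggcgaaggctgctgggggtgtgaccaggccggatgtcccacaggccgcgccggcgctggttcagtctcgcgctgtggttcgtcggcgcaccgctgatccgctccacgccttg
Fasn: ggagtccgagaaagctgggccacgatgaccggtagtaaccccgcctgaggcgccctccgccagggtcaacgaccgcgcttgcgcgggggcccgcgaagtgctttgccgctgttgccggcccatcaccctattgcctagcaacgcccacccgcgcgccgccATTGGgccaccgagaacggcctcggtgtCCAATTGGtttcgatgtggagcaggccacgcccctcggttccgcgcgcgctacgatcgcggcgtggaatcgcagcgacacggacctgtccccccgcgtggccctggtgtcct
Acly: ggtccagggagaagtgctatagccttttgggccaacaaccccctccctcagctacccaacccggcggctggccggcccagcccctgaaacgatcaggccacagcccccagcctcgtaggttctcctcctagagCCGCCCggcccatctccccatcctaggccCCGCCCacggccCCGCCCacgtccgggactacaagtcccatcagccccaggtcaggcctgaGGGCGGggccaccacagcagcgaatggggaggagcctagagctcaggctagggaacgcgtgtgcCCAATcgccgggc
Aacs held no exact match to any of the 4 motifs in this window. Fasn held 3 CCAAT matches, of which 2 overlap on opposite strands, and no GC box. Acly held 1 CCAAT box and 4 GC boxes. RefSeq windows of this kind were found for 9 of the 10 genes, 12 windows in all, out of 32851 windows over the genome. Some genes had several windows, among them Oxsm, which did not fall. The only Acaca window, chr11:84195188-84195487, lies inside the gene, whose annotated start is at 84129672, so that start was not searched. Mcat had none.

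CCAAT was in 5 of the 12 windows, against 37.4% of all windows, and GGGCGG was in 7 of the 12, against 35.7%. CACGTG was in 0 of the 12, against 7.15%. TCACNCCAC was in 1 of the 12, a second window of Acsl1, against 1.24%. The windows of the 10 genes had a median GC content of 64.2%, against 52.7% over all windows, and a median of 19.5 CpG dinucleotides, against 7. A match is a string of letters and does not show binding. Only exact matches were searched, so the lack of a match does not show the lack of a site.

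The 3 genes for activating and importing long-chain fatty acids also fell. Acsl1, a long-chain acyl-CoA synthetase known in macrophages for its induction by inflammatory stimuli, lies at chr8:46471037-46536051 on the plus strand. Its level was 2.44, 2.005 and 2.05 FPKM in the C/D libraries, against 4.14, 2.54 and 2.85 FPKM in the Gel/S libraries. The groups were separate, but the lowest Gel/S library lay close to the highest C/D library. Acsl1 had a log2 fold change of -0.51 (SE 0.163, 95% interval -0.86 to -0.15, edgeR adjusted p = 0.0378). This call was the least stable of the 8. It was lost without C/D 1 (adjusted p = 0.0571), C/D 2 (0.132), C/D 3 (0.118), Gel/S 1 (0.0935) or Gel/S 3 (0.0559), and the log2 fold change was -0.28 without Gel/S 1.

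Acsl3, an acyl-CoA synthetase of the endoplasmic reticulum and lipid droplets, lies at chr1:78657825-78707743 on the plus strand. Its level was 9.05, 9.39 and 10.8 FPKM in the C/D libraries, against 14.4, 12.4 and 12.82 FPKM in the Gel/S libraries. The groups did not overlap. Acsl3 had a log2 fold change of -0.40 (SE 0.0969, 95% interval -0.61 to -0.19, edgeR adjusted p = 0.0115). Without C/D 1 its adjusted p was 0.0532, and without C/D 2 it was 0.0614. The ratio of Acsl3 to Acsl1 averaged 4.54 ± 0.778 in C/D and 4.30 ± 0.735 in Gel/S (SD, n = 3 each). Per principal transcript length it averaged 1.86 ± 0.319 in C/D and 1.76 ± 0.301 in Gel/S. Its groups overlapped, with p = 0.6 in the two-sided exact permutation test.

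Slc27a4 (FATP4), a membrane protein with acyl-CoA synthetase activity that promotes fatty acid uptake, lies at chr2:29802634-29817522 on the plus strand. Its level was 3.96, 4.65 and 4.25 FPKM in the C/D libraries, against 8.84, 5.18 and 6.74 FPKM in the Gel/S libraries. The Gel/S libraries were again the more widely spread, with Gel/S 2 near the C/D libraries. For Slc27a4 the log2 fold change was -0.64 (SE 0.163, 95% interval -0.999 to -0.29, edgeR adjusted p = 0.0139). Without C/D 1 its adjusted p was 0.0659, and without C/D 3 it was 0.0511.

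The 2 mitochondrial genes did not pass the test. Mcat, the malonyl-CoA transferase that loads the mitochondrial acyl carrier protein, lies at chr15:83546797-83563787 on the minus strand. Its level was 6.09, 5.63 and 6.86 FPKM in the C/D libraries, against 8.77, 6.37 and 8.31 FPKM in the Gel/S libraries. The highest C/D library was above the lowest Gel/S library. For Mcat the log2 fold change was -0.29 (SE 0.140, 95% interval -0.60 to 0.01, edgeR adjusted p = 0.138). Without Gel/S 2 it was -0.42 and passed (adjusted p = 0.0254).

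Oxsm, the mitochondrial condensing enzyme that lengthens the chain, lies at chr14:16238652-16249808 on the minus strand. Its level was 4.12, 4.16 and 4.16 FPKM in the C/D libraries, against 4.51, 4.10 and 4.18 FPKM in the Gel/S libraries. Both groups covered nearly the same values. Oxsm had a log2 fold change of 0.00 (SE 0.107, 95% interval -0.23 to 0.24, edgeR adjusted p = 0.986). Differences within that interval were not detectable with these libraries.

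The order of the genes by FPKM differed between the groups. In C/D the order was Acly, Fasn, Acsl3, Aacs, Mcat, Slc27a4, Oxsm, Acaca, Acss2 and Acsl1. The library ranges of Aacs and Mcat, of Slc27a4 and Oxsm, and of Acaca and Acss2 overlapped there. In Gel/S the order was Acly, Fasn, Aacs, Acsl3, Mcat, Slc27a4, Acaca, Oxsm, Acss2 and Acsl1. Acly and Fasn overlapped, and from Mcat downwards each gene overlapped its neighbour. Aacs was thus below Acsl3 in every C/D library and above it in every Gel/S library. FPKM divides by the authors' listed gene length, which for Acss2 is 10.163 kb, against 2.931 kb for its principal transcript. Per length of the principal transcript, Acss2 averaged 9.50 ± 0.478 in C/D and 14.0 ± 1.67 in Gel/S (SD, n = 3 each), which put it at position 4 in C/D and 5 in Gel/S. On that scale Oxsm was the lowest in both groups.

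Within Gel/S the 10 genes moved together from library to library. Gel/S 1 was the highest of all 6 libraries for 10 of 10 genes, and Gel/S 2 was the lowest Gel/S library for 9 of 10. The shares of all tested genes with these orders are not given here. The FPKM of all genes summed to 379403 in Gel/S 1, 439896 in Gel/S 2 and 415239 in Gel/S 3. That is the reverse of the order of the 10 genes' sums, and the part of this library-wide difference was not tested. On the log2 CPM scale the median deviation of the 10 genes from the Gel/S mean was 0.18 in Gel/S 1, -0.16 in Gel/S 2 and -0.02 in Gel/S 3. In C/D the medians were -0.04, 0.00 and 0.01 for libraries 1, 2 and 3. On that scale 10 of the 10 genes lay above the Gel/S mean in Gel/S 1, against 49.3% of all tested genes. In Gel/S 2, 0 of the 10 did, against 51.2%. The SD in FPKM was larger in Gel/S than in C/D for 10 of 10 genes, as was the mean FPKM. The share of all tested genes with a larger SD in Gel/S was not computed. Over all genes the chi-square per degree of freedom was also largest between Gel/S 1 and Gel/S 2, at 41.0. The share of mitochondrially encoded counts was 5.59% in Gel/S 1, 9.02% in Gel/S 2 and 7.41% in Gel/S 3, so the Gel/S library with the highest levels had the lowest share. In C/D 1, 2 and 3 it was 9.17%, 10.4% and 9.99%. Of the C/D libraries, C/D 1 had the lowest summed level of the 10 genes and also the lowest share. The part of this share in the differences was not tested. Summed over the 10 genes the level was 83.5, 89.0 and 91.4 FPKM in the C/D libraries, against 186, 139 and 152 FPKM in the Gel/S libraries.

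Leaving out C/D 1 reduced the number of the 10 genes that passed to 5, with Acsl1, Acsl3 and Slc27a4 lost. The number of all tested genes that fell was 1631, and it was 902, 876, 1006 and 1005 in fits that left out C/D 1, C/D 2, C/D 3 and Gel/S 3, in that order. Of all calls, 48.4% were higher in C/D. That split was 40.9% with limma on log2(FPKM + 1) and 29.5% with limma on log2(TPM + 1), where the median of all genes was -0.12. On the TPM scale 6 of the 10 genes fell, and Oxsm, at -0.12, stood at that median.

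Several of the 10 genes belong to families whose other members were also measured, and the make-up of these families is given as a description chosen after the values were seen. Among short-chain synthetases, Acss2 made up 40.2%, 40.4% and 38.2% of the summed FPKM of Acss1 and Acss2 in the C/D libraries, against 52.5%, 54.1% and 55.5% in the Gel/S libraries. Acss1, the mitochondrial acetate-activating enzyme, averaged 4.18 ± 0.306 FPKM in C/D and 3.46 ± 0.573 FPKM in Gel/S (SD, n = 3 each). Its log2 fold change was 0.32 and did not pass (edgeR adjusted p = 0.0946), but it was 0.45 and passed without Gel/S 1 (0.0180). Which of the 2 enzymes was the larger depended on the length used. Per length of the principal transcript Acss2 made up 66.6% ± 1.16 in C/D and 78.1% ± 1.03 in Gel/S (SD, n = 3 each), the larger in all 6 libraries. On both scales the share of Acss2 was lower in every C/D library than in every Gel/S library.

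Among the long-chain synthetases Acsl5 was the largest part, at 52.7% ± 0.592 of the family's FPKM in C/D and 53.6% ± 1.16 in Gel/S (SD, n = 3 each). Acsl3 made up 19.7% ± 0.938 in C/D and 17.7% ± 1.00 in Gel/S, and Acsl1 made up 4.40% ± 0.630 in C/D and 4.18% ± 0.527 in Gel/S. Per principal transcript length the share of Acsl1 was 10.05% ± 1.34 in C/D and 9.57% ± 1.15 in Gel/S. Acsl1, Acsl3, Acsl4 and Acsl5 all fell, and these shares were not tested. In the FATP family Slc27a4 made up 5.79%, 6.76% and 6.66% in the C/D libraries, against 13.5%, 7.89% and 10.5% in the Gel/S libraries. Per principal transcript length its mean share was 3.57% ± 0.289 in C/D and 5.996% ± 1.66 in Gel/S (SD, n = 3 each). Slc27a1 (FATP1) made up most of that family and averaged 57.5 FPKM in C/D and 55.0 FPKM in Gel/S, with a log2 fold change of 0.11 that did not pass (edgeR adjusted p = 0.374).

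**Figure D3:**
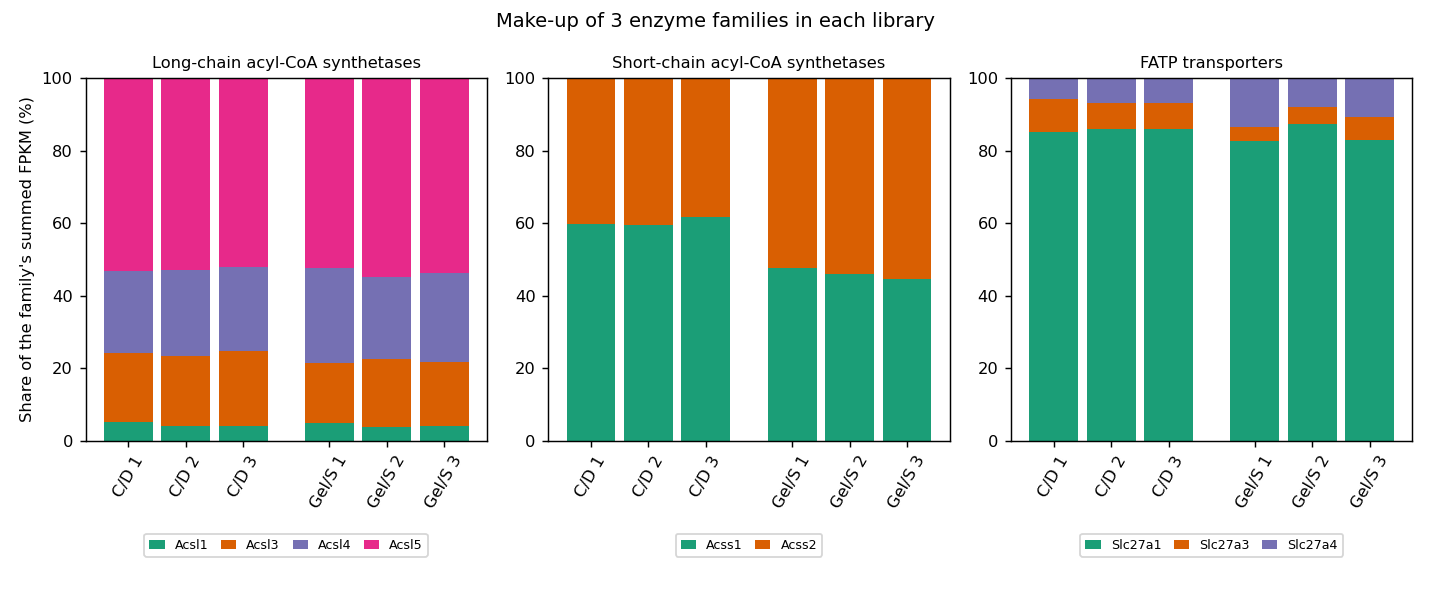
Share of each gene in the summed FPKM of its family, in percent, for each library, with C/D libraries left of Gel/S libraries. FPKM uses the listed gene length, which sets the order of Acss1 and Acss2 in C/D. The share of Acss2 is between 38.2% and 40.4% in C/D and between 52.5% and 55.5% in Gel/S, and Acsl5 is the largest long-chain synthetase in all 6.

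Over 7 lists of neighbouring genes, 84 of 102 were tested. Of these 23 fell (27.4%), 7 rose and 54 did not pass, with a median log2 fold change of -0.13. Among all tested genes 13.9% fell and 13.1% rose, the shares to set beside the counts of each list below. The lists were chosen with earlier results of these data known. For citrate and acetyl-CoA formation, 7 of 22 tested genes fell and 1 rose. Acat2, the cytosolic acetoacetyl-CoA thiolase at the head of sterol synthesis, averaged 21.6 FPKM in C/D and 49.0 FPKM in Gel/S, a log2 fold change of -1.14 (edgeR adjusted p = 4.51e-05). Slc25a1, the carrier that exports citrate for Acly, averaged 31.8 FPKM in C/D and 49.5 FPKM in Gel/S, a log2 fold change of -0.60 (edgeR adjusted p = 0.000631). Me2, the mitochondrial malic enzyme, had a log2 fold change of -0.69, and Aco1, cytosolic aconitase, of -0.62. Both passed (edgeR adjusted p = 0.00133 for Me2 and 0.00417 for Aco1).

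For ketone body and monocarboxylate use, 2 of 5 tested genes fell and 1 rose. Slc16a1, the monocarboxylate transporter MCT1 that carries lactate and ketone bodies, averaged 16.1 FPKM in C/D and 31.7 FPKM in Gel/S, a log2 fold change of -0.93 (edgeR adjusted p = 0.000349). Oxct1, which activates acetoacetate in mitochondria as Aacs does in the cytosol, averaged 35.4 FPKM in C/D and 59.2 FPKM in Gel/S, a log2 fold change of -0.70 (edgeR adjusted p = 0.00137). Slc16a6, a related transporter, rose, with 40.6 FPKM in C/D and 30.1 FPKM in Gel/S, a log2 fold change of 0.48 (edgeR adjusted p = 0.00254).

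Of the lipogenic transcription factors and their activators, 5 of 12 tested genes fell and none rose (0 also at an unadjusted p under 0.05, with DESeq2 and with limma). Srebf2, the factor best known for sterol synthesis genes, averaged 19.6 FPKM in C/D and 36.2 FPKM in Gel/S, a log2 fold change of -0.84 (edgeR adjusted p = 0.000831). Srebf1, the factor best known for fatty acid synthesis genes, was at 12.9, 12.7 and 12.3 FPKM in the C/D libraries, against 18.9, 17.0 and 16.9 FPKM in the Gel/S libraries. Its groups did not overlap, and its log2 fold change was -0.44 (edgeR adjusted p = 0.00319). Insig1, which retains the SREBP activator Scap and is itself an SREBP target, had a log2 fold change of -0.73 (edgeR adjusted p = 0.000849), and Mlx, the partner of the carbohydrate-responsive factor, of -0.49 (edgeR adjusted p = 0.00748). The carbohydrate-responsive factor itself, Mlxipl, had at most 3 counts in any library and was not tested.

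Of the steps after palmitate, 7 of 12 tested genes fell and 1 rose. Scd1, the stearoyl-CoA desaturase that makes monounsaturated fatty acids, was at 7.49, 7.27 and 7.49 FPKM in the C/D libraries, against 27.1, 14.2 and 18.5 FPKM in the Gel/S libraries. The groups were far apart, and the log2 fold change of Scd1 was -1.38 (edgeR adjusted p = 0.000444). Scd2, the second desaturase, had a log2 fold change of -0.92 (edgeR adjusted p = 0.000349), Lpin1, a phosphatidate phosphatase, of -0.83 (edgeR adjusted p = 0.000841), and Elovl6, which lengthens palmitate, of -0.51 (edgeR adjusted p = 0.00474).

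In the 3 remaining lists at most 13.3% of the tested genes fell, against 13.9% of all tested genes. Of other acyl-CoA synthetases, transporters and thioesterases, 2 of 15 tested genes fell and 2 rose. Acsl5 and Acsl4 fell, with log2 fold changes of -0.59 (edgeR adjusted p = 0.00142) and -0.64 (edgeR adjusted p = 0.00353). Acot13, a thioesterase that releases fatty acids from CoA, rose by 0.73 on the log2 scale (edgeR adjusted p = 0.00423). Slc27a3 rose by 0.75 (edgeR adjusted p = 0.0166), with an adjusted p of 0.0795 without C/D 1.

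Of malonyl-CoA and carboxylase control genes, 0 of 10 tested fell with edgeR, 1 fell at an unadjusted p under 0.05, and 0 fell with DESeq2 or with limma on log2(FPKM + 1). Limma on log2(TPM + 1), edgeR with no filter and edgeR without Gel/S 1 each called 1 as fallen. Prkab2, a subunit of the kinase AMPK that inhibits Acaca, rose, with a log2 fold change of 0.31 (edgeR adjusted p = 0.0293). Its adjusted p was 0.104, 0.0638 and 0.0750 without C/D 1, 2 and 3, and 0.0505 and 0.0894 without Gel/S 2 and 3. Prkab2 was also not called with limma on any scale or by edgeR with no filter. Prkab1, another AMPK subunit, went the other way and did not pass. It averaged 11.7 FPKM in C/D and 14.5 FPKM in Gel/S, a log2 fold change of -0.27 (edgeR adjusted p = 0.121). Prkaa1, Prkag1 and Prkag2 did not pass either (edgeR adjusted p = 0.995, 0.430 and 0.174 in that order). Of mitochondrial fatty acid synthesis and lipoylation genes, 0 of 8 tested fell with edgeR, 1 fell at an unadjusted p under 0.05, 0 fell with DESeq2 and 1 with limma. Ndufab1, the mitochondrial acyl carrier protein that Mcat loads, rose to 12.7 FPKM in C/D, against 9.27 FPKM in Gel/S, a log2 fold change of 0.49 (edgeR adjusted p = 0.00485).

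**Figure D4:**
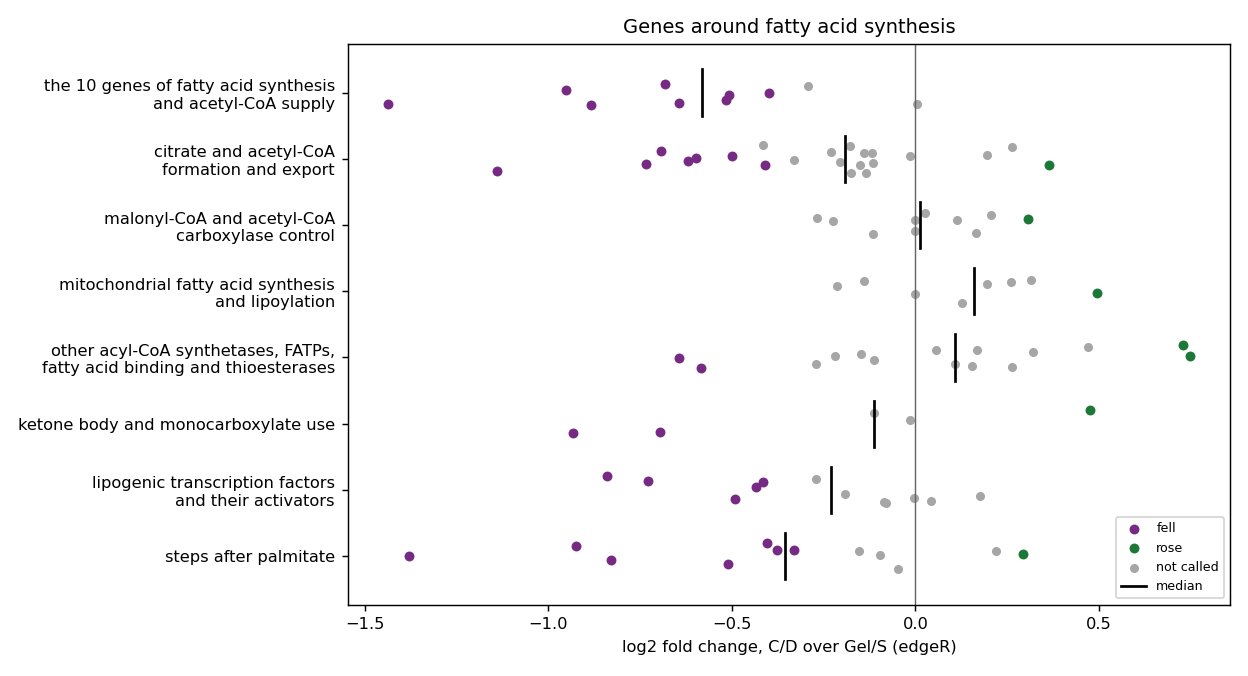
Log2 fold change, C/D over Gel/S, of every tested gene in the 10 genes of fatty acid synthesis and acetyl-CoA supply and in the 7 lists, with purple points for genes that fell, green for those that rose, grey for those that did not pass the edgeR test, and a black bar at each median. The median is -0.58 for the 10 genes, -0.35 for steps after palmitate and -0.23 for lipogenic transcription factors.

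The genes most like Fasn over the 6 libraries, by Pearson's r of log2 CPM among 4335 genes with a mean of at least 10 FPKM, were Xpnpep1 (r = 0.998), Nup62, Uba2, Sympk and Tlr2 (r = 0.997 each). All 6 points share the difference between the groups, so r is a description. Among the 10 genes the r with Fasn was 0.9751 for Aacs, 0.968 for Acaca, 0.957 for Acss2, 0.956 for Acly and 0.928 for Acsl3. It was 0.865 for Slc27a4, 0.820 for Acsl1, 0.698 for Mcat and 0.0856 for Oxsm.

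Some of the genes overlap others in the annotation, and the sources used here do not say whether counting used strand, so reads in the shared bases cannot be told apart. Gss overlaps Acss2 over 22544 bases of its span on the opposite strand and averaged 5.72 FPKM in C/D and 5.32 FPKM in Gel/S, with a log2 fold change of 0.15 that did not pass (edgeR adjusted p = 0.261). Utp14b overlaps Acsl3 over 13475 bases on the same strand and did not pass (log2 fold change -0.24, edgeR adjusted p = 0.215). Tspo overlaps the start of Mcat by 196 bases and averaged 125 ± 6.05 FPKM in C/D and 112 ± 8.57 FPKM in Gel/S (SD, n = 3 each), far above Mcat. Ngly1 overlaps the start of Oxsm by 529 bases, Ggt7 that of Acss2 by 290 bases, and Tada2a starts 72 bases from Acaca. None of Tspo, Ngly1, Ggt7 and Tada2a passed (edgeR adjusted p = 0.101, 0.936, 0.160 and 0.322 in that order).

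In the authors' deposited table, with the sign turned to C/D over Gel/S, the same 8 genes had an adjusted p under 0.05. The log2 fold change in the authors' deposited table was -1.48 for Aacs, -0.93 for Acly and -0.34 for Mcat, for which its adjusted p was 0.139.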

How the data were processed

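The deposited table held raw counts per gene for each library, made by the authors, per the file headers. It also held FPKM, which the authors computed from counts and a listed gene length, per the file headers. Group means of normalized signal, log2 fold changes and p-values in that table are the authors' deposited values. Per the submitters' processing notes, the genome build was GRCm38 (mm10). The sources used here name no aligner, counter or strand setting.

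Genes were found by symbol. 27 symbols turned into dates were restored, and entries of 100 repeated symbols were summed. Genes with a mean of at least 1 FPKM were tested, 11708 in all, holding at least 99.4% of the counts. The main test was edgeR 4.0.16 (R 4.3.3) on counts with TMM factors and a quasi-likelihood fit over all 6 libraries, with Benjamini-Hochberg adjustment and a threshold of 0.05. It was also run on simulated counts, and the results of that run are not given here. Alternatives were RLE factors, DESeq2 1.42.0, no filter, a mean of at least 5 FPKM, limma 3.58.1 on log2(FPKM + 1), log2(FPKM + 0.1) and log2(TPM + 1), the replicate number as a block, and leaving out each library. Levels, ratios and family shares per principal transcript length (GENCODE M21) were added after the data were seen. Ratios per library were compared by exact permutation tests.

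The 10 genes and the 7 lists were chosen with earlier results of these data known. The genes named were the 10 members, up to 4 called genes with the smallest adjusted p in each list, the 5 genes most like Fasn, and genes that overlap a member or start within 1 kb of its start. Some cell type markers were also named. Family members, other AMPK subunits and Mlxipl were named beside these after the values were seen. Overlapping miRNAs, pseudogenes, antisense and predicted entries, at 15 counts or fewer in every library, were left out of the text. Promoter windows came from RefSeq (GRCm38.p6).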

Additional observations from a re-analysis of the deposited data

How the results depend on the processing

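Aacs, Fasn, Acly, Acaca and Acss2 kept direction and call in every alternative that tested them. With a mean of at least 5 FPKM, 5 of the 10 genes passed, since Acss2, Acaca, Acsl1 and Oxsm were then not tested. Leaving out 1 library gave 5 to 9 of the 10, 1804 to 4078 calls over all genes (876 to 2089 fallen, 887 to 1989 risen), and 23 to 31 calls over the lists (18 to 23 fallen, 3 to 8 risen). Limma on log2(FPKM + 1), log2(FPKM + 0.1) and log2(TPM + 1) called 1020, 1008 and 633 risen genes, of which 4, 4 and 3 were in the lists. In the same order these fits called 7, 7 and 6 of the 10 genes, all as fallen. Acsl1 was lost in all 3 (adjusted p = 0.103, 0.0972 and 0.111), and Slc27a4 with TPM (0.0589). With FPKM + 1 the log2 difference was -0.46 for Acly over Acss2, -0.40 for Fasn over Acaca and -0.02 for Acsl3 over Acsl1. Leaving out 1 library gave -0.41 to -0.29 for Acly over Acss2, -0.33 to -0.22 for Fasn over Acaca, -0.997 to -0.905 for Fasn over Oxsm and -0.06 to 0.22 for Acsl3 over Acsl1. The deviations of same-numbered libraries from their group means had correlations of -0.0568, -0.0589 and 0.0454, so the numbers were not taken as pairs. With the replicate block the ratios had p = 0.25 to 0.5 in an exact sign-flip test, where 0.25 is the smallest p that 3 pairs allow and no ratio could pass, and 8 of the 10 genes passed, as did 2544 genes in all, and Prkab2 did not (adjusted p = 0.0506). The cause of these shifts was not tested. The interval of Mcat reached from -0.60 to 0.01, so with 3 libraries a group its direction was not resolved.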
